A study of Mus musculus with 16 samples.

Results

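The nuclear genes of the mitochondrial respiratory chain were examined in sorted cells of the mouse olfactory mucosa. They were taken by symbol, as every gene whose name starts with Nduf (complex I), Sdha to Sdhd (complex II), Uqcr (complex III), Cox4 to Cox8 (complex IV) or Atp5 (complex V). This rule found 97 of the 19505 genes on the array: 46 for complex I, 8 for complex II, 8 for complex III, 18 for complex IV and 17 for complex V. Of these, 84 encode subunits, 12 encode assembly factors (Ndufaf1 to Ndufaf8 and Sdhaf1 to Sdhaf4) and 1, Ndufa4l2, encodes a relative of a subunit that is known to be induced by low oxygen.

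All groups came from S100a5-tauGFP mice, in which the promoter of S100a5, whose transcription in olfactory sensory neurons depends on their activity, drives a green fluorescent protein. The 24 mice, of both sexes and 7 to 12 weeks old, were housed singly for 40 h in chambers supplied with clean air at 3.1 L per min. After 26 h they began to receive 10 s of octanoic acid, a fatty acid odorant, or of clean air as the vehicle, every 20 min. The mucosa of 3 mice formed a pool, and sorting of all 8 pools into GFP+ and GFP- cells gave 16 Clariom S arrays in 4 groups of 4: GFP+ and GFP- with clean air, and GFP+ and GFP- with octanoic acid. GFP+ cells are those in which the S100a5 reporter was on, and GFP- cells are all others that passed the sort, which can hold less active neurons and cells that are not neurons.

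Complexes I to IV pass electrons from NADH and succinate to oxygen and pump protons out of the mitochondrial matrix, except for complex II, which pumps none. Complex V, the ATP synthase, lets the protons back in and makes ATP. Nuclear genes encode most subunits, mitochondrial DNA encodes the rest, and several subunits of complex IV exist as a common form and a form known from muscle, lung or testis. Olfactory sensory neurons spend ATP to restore ion gradients after each odor response, and draw it both from mitochondria and from glycolysis.

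Promoters of respiratory chain genes are textbook targets of the transcription factors NRF1, GABP (an ETS factor, also called NRF2) and YY1, which the coactivator encoded by Ppargc1a works with. Stretches of 150 bases that end at the base before the annotated start are printed here as examples. They come from RefSeq on GRCm38.p6 and are read 5′ to 3′ on the strand of the gene. The first 3 belong to common subunits and the last 2 to muscle forms of complex IV. Capitals mark the core motifs searched on both strands, which are TGCGCA for NRF1 (its own reverse complement), CCGGAAG for GABP (reverse complement CTTCCGG) and AAGATGG for YY1 (reverse complement CCATCTT).
Sdha, the flavoprotein of complex II, chr13:74350241-74350390, minus strand: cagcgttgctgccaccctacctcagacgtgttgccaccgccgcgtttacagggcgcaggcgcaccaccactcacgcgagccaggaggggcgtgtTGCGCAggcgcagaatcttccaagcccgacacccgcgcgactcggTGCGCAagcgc
Sdhd, a membrane anchor of complex II, chr9:50603850-50603999, minus strand: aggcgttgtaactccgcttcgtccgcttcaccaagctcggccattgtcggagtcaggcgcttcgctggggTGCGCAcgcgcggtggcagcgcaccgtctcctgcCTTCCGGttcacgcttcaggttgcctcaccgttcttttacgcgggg
Cox6a1, the common form of subunit VIa of complex IV, chr5:115348959-115349108, minus strand: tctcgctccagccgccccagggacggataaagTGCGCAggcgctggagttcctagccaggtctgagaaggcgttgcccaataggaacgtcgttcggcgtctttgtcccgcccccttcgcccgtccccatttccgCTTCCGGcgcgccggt
Cox7a1, the muscle form of subunit VIIa, chr7:30184021-30184170, plus strand: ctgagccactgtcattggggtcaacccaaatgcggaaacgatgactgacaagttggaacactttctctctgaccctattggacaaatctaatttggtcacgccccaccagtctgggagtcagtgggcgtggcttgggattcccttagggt
Cox8b, the muscle form of subunit VIII, chr7:140900447-140900596, minus strand: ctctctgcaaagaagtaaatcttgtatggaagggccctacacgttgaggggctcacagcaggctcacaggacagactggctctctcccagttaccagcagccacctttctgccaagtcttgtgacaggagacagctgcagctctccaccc

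The table of promoters held windows of 300 bases, 250 before and 50 after the start, for 81 of the 97 genes, 86 windows in all. TGCGCA lay in 25.6% of these windows, against 10.1% of the windows of all tested genes. CCGGAAG also lay in 25.6%, against 11.8%, and AAGATGG in 14.0%, against 6.32%. At least 1 of the 3 motifs lay in 52.3% of the members' windows, against 24.8% of those of all tested genes and 32.9% of those of tested genes above the limit for dim signals defined below. All 7 windows of complex II held at least 1, against 48.8% for complex I, 60.0% for complex III, 38.5% for complex IV and 50.0% for complex V. The windows of complex II include those of the assembly factors Sdhaf1 to Sdhaf4, while Sdhc had none, and complex III had only 5 windows. The median GC content was 58.5% for members and 57.0% for all tested genes. The printed stretches of Sdha, Sdhd and Cox6a1 hold 2 matches each, more than those of most members. The common subunits Cox5a, Cox7a2 and Cox7b held none of the 3 motifs in their windows. The printed examples thus do not set common subunits apart from muscle forms. A match is a description of the letters in the window and not a bound site.

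The deposited values are log2 signals, so that 1 unit is a 2-fold difference. The background was 6.20 log2, the median of 5222 negative-control probe sets, and a gene whose mean over all 16 arrays was under 7.20 log2, 1 unit above it, is called dim. Of the 97 genes, 83 were above this limit, as were 9747 of all 19505 genes. The 95th percentile of the negative controls was 10.4 log2, so signals under it may be background even where a gene is not dim. By group means, this holds for many genes reported below. Examples in every group are the members Cox7a1, Ndufaf5, Ndufv3, Uqcr10, Sdha, Sdhaf1 and Ndufb11. Others are Tmem186, Ttc19, Lyrm7, Mrpl41, Mrps5, Tfam and Aldoc. It also holds for Ldha and Pgk1 in GFP+ cells. The mean signal was 17.21 log2 for Atp5a1 and 16.89 for Atp5b, the alpha and beta subunits of the catalytic head of complex V. It was 16.14 for Cox7c of complex IV, 16.10 for Uqcrb of complex III and 15.15 for Ndufa4, which is named for complex I but known as a subunit of complex IV. These genes lay more than 8 log2 above the background in every group.

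The 14 dim genes included the forms of complex IV subunits known from lung, muscle or testis. These were Cox4i2 (5.34 log2), Cox6a2 (6.70), Cox6b2 (4.75), Cox7b2 (6.01), Cox8b (4.62) and Cox8c (6.49). Of the forms of this kind, the exception was Cox7a1, the muscle form of subunit VIIa, at 7.42 log2. The other dim genes were Ndufa4l2 (3.59), Ndufa7 (6.34), Ndufaf2 (6.87), Ndufaf8 (6.31), Sdhaf3 (7.05), Sdhaf4 (4.71), Uqcr11 (6.78) and Atp5k (6.02). The last of these and Ndufa7 and Uqcr11 encode subunits, so a low signal of 1 probe set does not show that a transcript was missing. Each of the 97 genes had 1 probe set.

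**Figure D1:**
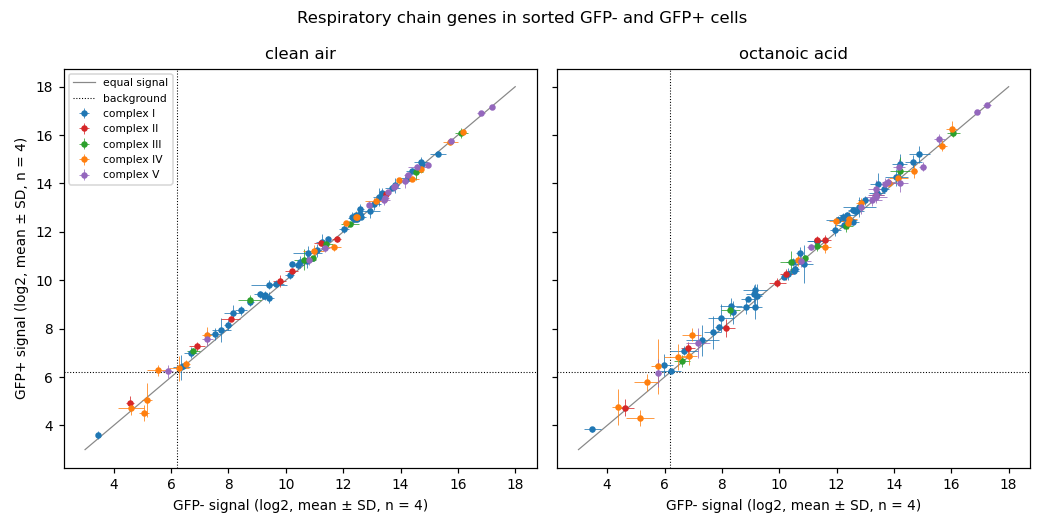
Mean signal of each of the 97 genes in GFP- cells (x axis, log2) and in GFP+ cells (y axis, log2), in 1 panel per treatment; points are means, bars are SD over 4 arrays, colours are the complexes, the solid line is equal signal and the dotted lines are the background of 6.20 log2. The points follow the line of equal signal from Ndufa4l2, under the background, to Atp5a1 at 17.21 log2.

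Spread over the 16 arrays was small. The SD over all arrays, groups mixed, had a median of 0.25 log2 over the 97 genes and of 0.34 over all genes. For genes above the limit these medians were 0.23 and 0.31. Members were also brighter, with a median level of 11.5 log2 against 7.2 for all genes, and of 12.4 against 10.2 above the limit. The part of signal level in the spread was not tested. The smallest SD belonged to Uqcrq, a small subunit of complex III, at 0.070, and its 16 values ran from 10.82 to 11.06 log2. Atp5a1 followed at 0.084, with values from 17.11 to 17.41. The largest belonged to Cox7b2 at 0.67, a dim gene.

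The GFP+ array of pool 3 with octanoic acid correlated least with the mean of its group's other arrays, at an r over genes of 0.979 against 0.989 to 0.994 elsewhere, and its background was 6.71 log2. The GFP- array of pool 4 with clean air had the highest background, 6.77. Leaving out both pools gave the members a median difference of 0.12 log2 for clean air, and of 0.23 for octanoic acid with 3 members called higher. That fit called 4.21% of all genes higher with octanoic acid.

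As a check of the sort, S100a5 was 2.49-fold higher in GFP+ than in GFP- cells with clean air and 2.89-fold higher with octanoic acid. The summed signal of 11 markers of mature olfactory neurons was 20.77 to 21.07 log2 in GFP- and 21.13 to 21.17 in GFP+ arrays with clean air, and 20.94 to 21.11 and 20.91 to 21.19 with octanoic acid. None of these 11 markers was at the background in any group. All 10 leukocyte markers fell in GFP+ cells with either treatment, and their summed signals were 16.11 to 17.45 log2 in GFP- and 9.95 to 11.55 in GFP+ arrays with clean air, and 16.48 to 18.31 and 10.01 to 12.08 with octanoic acid. Cd52, Tyrobp, Fcer1g, Cd53 and Itgb2 of this list lay at the background in GFP+ cells. Markers of other cells were lower there too: with clean air 10 of 10 for neutrophils (summed signal 18.57 to 19.87 log2 in GFP- and 9.64 to 11.05 in GFP+ arrays), 7 of 7 for microvillous and tuft cells, 3 of 3 for erythroid cells, 4 of 8 for immature neurons, 4 of 7 for basal cells, 3 of 8 for sustentacular cells and 1 of 4 for glia. With octanoic acid these counts were 10, 6, 3, 5, 4, 2 and 1. The part of these cells in the differences below was not tested, and a lower number of cells and less RNA per cell cannot be told apart in sorted bulk samples.

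With clean air, the comparison of GFP+ with GFP- cells of the same pool asked which transcripts differ between cells with and without the activity reporter. None of the 97 respiratory chain genes passed the test. By limma on the 4 within-pool differences, with Benjamini-Hochberg adjustment over all genes at 0.05, 0 were higher and 0 were lower, where 5.83% of all genes were called higher and 9.58% lower. At an unadjusted p under 0.05 there were 9 of 97, of which 8 were higher, against 5321 of all 19505 genes. The smallest adjusted p was 0.0716, for Ndufa11. Without pool 2 or pool 3 of octanoic acid, which share in the estimate of the spread, 2 and 1 of the 97 genes were called higher. In these fits 6.45% and 6.57% of all genes were called higher. With each array centred on its own median, 34 of the 97 were called higher, as were 31.2% of all genes.

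The differences themselves were small. They ran from -0.55 log2 for Cox6b2 to 0.74 for Cox7b2, both dim, with a median of 0.13 against 0.11 for all genes. The 95% interval lay within 1 log2 of 0, a 2-fold difference either way, for 94 of 97 genes (96.9%) and for 79.2% of all genes. The exceptions were Cox6b2, Cox7b2 and Ndufs7. A difference over 0.5 log2 was found in 3 of 97 (3.09%) and in 22.1% of all genes. Among genes with a mean of 12 log2 or more, it was found in 0 of 47 members and in 16.4% of all 2352. The interval lay within 1 log2 of 0 for 100% of these members and 88.1% of these genes. Over all 97 members, the largest fold that could be given was 1.42, for Ndufv3, and 69 of the 88 genes with a fold were under 1.2-fold. In the other 9 both groups lay at the background. The difference was above 0 in 75 of 97 genes (77.3%) and below 0 in 22, and above 0 in 64.3% of all genes, which is the background for the counts per complex that follow. This direction rests on the scaling: with arrays centred on the olfactory receptor genes the median was -0.05, and 38 were above 0.

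Complex I takes electrons from NADH in its matrix arm, which most Ndufs and Ndufv subunits belong to. All 10 genes with these symbols had a difference above 0 with clean air, from 0.06 to 0.50 log2, with a median of 0.21, and none was called. Ndufs1, which carries iron-sulfur clusters, measured 12.62, 12.72, 12.43 and 12.64 log2 in the GFP- arrays of pools 1 to 4 and 12.86, 13.20, 12.82 and 12.98 in the GFP+ arrays. All 4 GFP+ values lay above all 4 GFP- values, with a mean difference of 0.36 ± 0.10 log2 (SD, n = 4 pools). Ndufv1, which binds NADH, measured 13.28, 13.44, 13.34 and 13.40 in GFP- and 13.43, 13.84, 13.68 and 13.55 in GFP+ arrays, a difference of 0.26 ± 0.13 in which the groups overlapped. Ndufv3, an accessory subunit of the same arm, measured 8.36, 8.19, 8.36 and 7.70 in GFP- and 8.94, 8.51, 8.90 and 8.28 in GFP+ arrays. Its difference of 0.50 ± 0.13 was positive in 4 of 4 pools and had an adjusted p of 0.102 by limma with Benjamini-Hochberg adjustment.

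The accessory subunits of complex I lay in the same narrow range. The 13 Ndufa genes had a median difference of 0.22 log2, with 10 above 0. They include Ndufa4, known as a complex IV subunit, but not Ndufab1 and Ndufa4l2. The 11 Ndufb genes, which belong to the membrane arm, had a median of 0.11, with 11 above 0. Ndufa11, a membrane arm subunit, measured 10.33, 10.29, 10.12 and 10.15 in GFP- arrays and 10.63, 10.51, 10.77 and 10.73 in GFP+ arrays, with no overlap. Its difference was 0.44 ± 0.21 log2, with a 95% interval of 0.11 to 0.76. Ndufb11 differed by 0.10 ± 0.05 and Ndufc2 by 0.05 ± 0.04, both positive in 4 of 4 pools. Among the Ndufs and Ndufv genes, which are not part of these groups, Ndufs7, next to the quinone site, varied most. Its difference was 0.37 ± 0.71, with an interval from -0.31 to 1.05.

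Complex II, which also works in the citric acid cycle, had 7 of its 8 genes above 0, with a median of 0.25 log2, and a median of 0.12 over its 4 subunits without the assembly factors. Sdha, whose promoter is printed above, measured 10.16, 10.44, 10.29 and 9.93 in GFP- and 10.41, 10.50, 10.24 and 10.35 in GFP+ arrays with clean air. The groups overlapped and the difference was 0.17 ± 0.21. Sdhb, the iron-sulfur subunit, differed by 0.06 ± 0.07 and the anchor Sdhd by -0.06 ± 0.08. Sdhc, the other anchor, measured 11.21, 11.38, 11.40 and 10.90 in GFP- and 11.55, 11.63, 11.62 and 11.34 in GFP+ arrays, a difference of 0.31 ± 0.10 that was positive in 4 of 4 pools. Its assembly factors Sdhaf1, Sdhaf3 and Sdhaf4 differed by 0.33 ± 0.23, 0.36 ± 0.34 and 0.36 ± 0.22, the latter pair dim.

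Complex III, which passes electrons from ubiquinol to cytochrome c, had a median difference of 0.07 log2, with 5 of 8 genes above 0. Uqcrc1, a core subunit, measured 12.36, 11.97, 12.65 and 12.02 in GFP- and 12.43, 12.24, 12.35 and 12.27 in GFP+ arrays, a difference of 0.07 ± 0.27. The Rieske iron-sulfur subunit Uqcrfs1 also differed by 0.07, ± 0.17. Uqcrq differed by -0.05 ± 0.11, with an interval from -0.34 to 0.24. The small subunit Uqcr10 had the largest value of the complex, 0.44 ± 0.38, positive in 4 of 4 pools.

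Complex IV, which reduces oxygen, had a median of 0.10 log2, with 11 of 18 genes above 0. Cox4i1, the common form of subunit IV, measured 12.31, 12.70, 12.55 and 12.27 in GFP- and 12.32, 12.79, 12.81 and 12.61 in GFP+ arrays. Its difference was 0.18 ± 0.15, within overlapping groups. Cox5b differed by 0.17 ± 0.05, Cox5a by 0.25 ± 0.17 and Cox6c by -0.21 ± 0.18. Cox7a2l, known for joining complexes III and IV in supercomplexes, differed by -0.30 ± 0.13 and was lower in 4 of 4 pools.

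Complex V had a median of 0.08 log2, with 11 of 17 genes above 0. Atp5b measured 16.84, 16.81, 16.95 and 16.61 in GFP- and 17.00, 16.95, 16.91 and 16.87 in GFP+ arrays, a difference of 0.13 ± 0.12. Atp5a1 differed by -0.01 ± 0.10, Atp5h, of the stalk, by 0.01 ± 0.05 and Atp5o, which joins the stalk to the head, by 0.08 ± 0.05. The genes Atp5g1, Atp5g2 and Atp5g3, which encode the same mature c subunit of the rotor, differed by 0.02 ± 0.17, -0.19 ± 0.08 and 0.08 ± 0.11. Of the complexes, only complex V had no gene at an unadjusted p under 0.05.

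With octanoic acid, 6 of the 97 genes were higher in GFP+ than in GFP- cells and 1 was lower (limma, Benjamini-Hochberg over all genes). Among all genes 6.26% were called higher and 10.9% lower, so the share of members called higher, 6.19%, was near that background. At an unadjusted p under 0.05 there were 21 of 97, of which 20 were higher. The 3347 genes called in either direction, 17.2% of all genes, pass this cut too, so the share of all genes at it is at least that. The full count of all genes at this cut is not given here, so no excess among the members is read from it. The median difference was 0.19 log2 against 0.11 for all genes, the range was -0.83 to 0.82, and 78 of 97 (80.4%) were above 0, as were 62.6% of all genes. The 95% interval lay within 1 log2 of 0 for 91 genes (93.8%) and for 77.0% of all genes. A difference over 0.5 log2 was found in 8.25% of members and 24.5% of all genes. With each array centred on its median, 56 members and 39.9% of all genes were called higher, and with arrays centred on receptor genes 1 member and 3.53% of all genes. With 1 pool left out 1 to 4 members were called higher, and 1 without pool 2 or pool 4 of octanoic acid. Without pool 2 the share of all genes called higher was 6.72%, and without pool 4 it was 3.18%.

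Cox7a1, the muscle form of complex IV subunit VIIa, had the largest rise. With octanoic acid it measured 6.62, 7.29, 7.14 and 6.71 log2 in GFP- and 7.65, 7.47, 8.08 and 7.84 in GFP+ arrays, so every GFP+ value lay above every GFP- value. The difference was 0.82 ± 0.43 log2 (SD, n = 4 pools), 1.76-fold, with an adjusted p of 0.0075 by limma. With clean air it measured 7.40, 7.19, 7.39 and 7.03 in GFP- and 8.08, 7.78, 7.80 and 7.25 in GFP+ arrays, a difference of 0.47 ± 0.20 with an adjusted p of 0.105. The call with octanoic acid held in 8 of 8 fits that left out 1 pool, with adjusted p up to 0.0486, and was lost with arrays centred on receptor genes, at 0.0636. The signals lay close to the background of 6.20 log2, and the promoter printed above held none of the 3 motifs in its window.

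Ndufaf5, a complex I assembly factor that hydroxylates a subunit of the matrix arm, also rose. It measured 8.81, 7.90, 8.35 and 8.16 in GFP- and 9.26, 9.14, 8.58 and 8.84 in GFP+ arrays with octanoic acid. The groups overlapped, but GFP+ was higher in 4 of 4 pools, by 0.65 ± 0.44 log2, with an adjusted p of 0.0307 by limma. With clean air the difference was 0.33 ± 0.26, also positive in 4 of 4 pools, with an adjusted p of 0.282. The call held in 5 of 8 fits that left out 1 pool, being lost without pool 1, 2 or 4 of octanoic acid, at adjusted p of 0.0552, 0.109 and 0.0989. It was the 1 member that was still called with arrays centred on receptor genes, at an adjusted p of 0.0343.

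Ndufb4 and Ndufb4b, near-identical copies of a membrane arm subunit whose signals may not be separable, both rose. Ndufb4 measured 13.53, 13.57, 13.60 and 13.04 in GFP- and 13.74, 14.07, 14.56 and 13.59 in GFP+ arrays, overlapping by a single GFP- array. Its difference was 0.55 ± 0.30 log2 with an adjusted p of 0.0419 by limma, and 0.11 ± 0.28 with clean air. Ndufb4b measured 14.53, 14.07, 14.30 and 13.91 in GFP- and 14.79, 15.23, 14.90 and 14.26 in GFP+ arrays, a difference of 0.59 ± 0.41 with an adjusted p of 0.0425, and 0.16 ± 0.27 with clean air. Both differences were positive in 4 of 4 pools with octanoic acid. The call of Ndufb4 held in 1 of 8 fits that left out 1 pool, that without pool 1 of octanoic acid, with adjusted p up to 0.158. That of Ndufb4b held in 3, without pool 1 of octanoic acid or pool 3 or 4 of clean air, with adjusted p up to 0.145.

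Atp5mpl, a small membrane subunit of complex V, measured 14.24, 14.01, 14.43 and 14.00 in GFP- and 14.75, 14.80, 15.01 and 14.23 in GFP+ arrays. It rose by 0.53 ± 0.23 log2 with an adjusted p of 0.0465 by limma, against 0.11 ± 0.32 with clean air. Ndufa7, a dim accessory subunit of complex I, measured 5.97, 6.03, 6.34 and 5.60 in GFP- and 6.38, 6.97, 6.76 and 5.94 in GFP+ arrays, around the background. Its difference was 0.53 ± 0.28 with an adjusted p of 0.0406. Each of these calls held in 1 of 8 fits that left out 1 pool, pool 3 of clean air for Atp5mpl and pool 4 of clean air for Ndufa7, with adjusted p up to 0.129 and 0.131.

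Cox6b2, the testis form of subunit VIb, was the 1 gene that fell. It measured 4.78, 5.11, 4.84 and 5.85 in GFP- and 4.06, 4.15, 4.79 and 4.25 in GFP+ arrays with octanoic acid, a difference of -0.83 ± 0.64 log2 with an adjusted p of 0.0199 by limma. With clean air it measured 4.90, 4.94, 5.27 and 5.11 in GFP- and 4.14, 4.32, 4.79 and 4.76 in GFP+ arrays, without overlap, a difference of -0.55 ± 0.18 with an adjusted p of 0.118. All 16 values lay under the background, so no fold is given. The call was lost without pool 2 or pool 4 of octanoic acid, at adjusted p of 0.0593 and 0.110, and with arrays centred on their medians (0.0534) or on receptor genes (0.133).

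**Figure D2:**
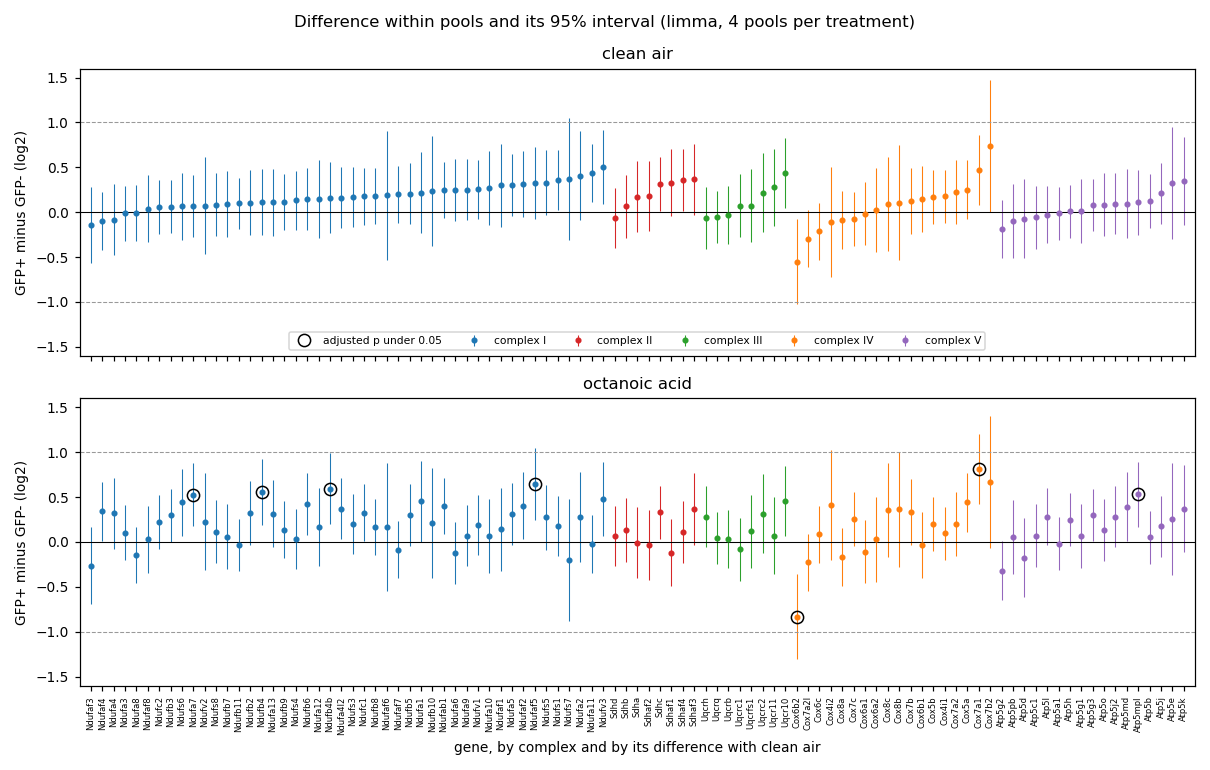
Difference between GFP+ and GFP- cells of the same pool (y axis, log2) for each of the 97 genes (x axis, by complex and then by its value with clean air), with clean air above and with octanoic acid below; points are means over 4 pools, bars are 95% intervals from limma, dashed lines mark 1 log2 either way, and rings mark an adjusted p under 0.05. No gene is ringed with clean air, and 7 are ringed with octanoic acid, of which Cox6b2 at -0.83 is the 1 below 0.

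By complex, the medians with octanoic acid were 0.22 log2 for complex I, 0.09 for complex II, 0.09 for complex III, 0.20 for complex IV and 0.17 for complex V. The calls were 4 higher in complex I, 1 higher and 1 lower in complex IV, 1 higher in complex V and none in complexes II and III. The Ndufs and Ndufv genes of complex I had a median of 0.19, with 9 of 10 above 0 and none called. Ndufs1 measured 12.49, 12.41, 13.04 and 12.77 in GFP- and 12.78, 12.95, 12.93 and 12.75 in GFP+ arrays, and its difference of 0.17 ± 0.30 came with overlapping groups, unlike with clean air. Ndufa11 differed by -0.02 ± 0.19 with octanoic acid, from GFP- values of 10.47, 10.21, 10.20 and 10.28 and GFP+ values of 10.57, 10.39, 10.00 and 10.13.

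The 11 Ndufb genes had a median of 0.30 with octanoic acid, with 10 above 0 and 2 called, both the copies of Ndufb4. Among members without a call, Ndufb6 differed by 0.42 ± 0.27, Ndufab1, the acyl carrier protein of complex I, by 0.40 ± 0.15 and Cox5a by 0.44 ± 0.24, each positive in 4 of 4 pools. Sdhc differed by 0.33 ± 0.14 and Uqcr10 by 0.46 ± 0.30, both close to their values with clean air. Sdha differed by -0.01 ± 0.45, Uqcrc1 by -0.08 ± 0.25, Cox4i1 by 0.10 ± 0.04, Atp5a1 by -0.02 ± 0.14 and Atp5b by 0.05 ± 0.13. Uqcrq differed by 0.04 ± 0.05, with an interval from -0.25 to 0.33.

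In the isoform sets of complex IV, the common form lay above the dim limit in every set, and of the forms known from lung, muscle or testis Cox7a1 was the 1 that did. The common forms differed little between GFP+ and GFP- cells. In the order clean air, octanoic acid, Cox6a1 differed by -0.02 ± 0.26 and -0.11 ± 0.26 log2, Cox6b1 by 0.15 ± 0.23 and -0.03 ± 0.35, Cox7a2 by 0.23 ± 0.22 and 0.20 ± 0.32, Cox7b by 0.13 ± 0.32 and 0.33 ± 0.27, and Cox8a by -0.09 ± 0.10 and -0.17 ± 0.25. Of the forms known from lung, muscle or testis, Cox4i2 differed by -0.11 ± 0.86 and 0.41 ± 0.43, Cox6a2 by 0.02 ± 0.24 and 0.03 ± 0.62, Cox8b by 0.10 ± 0.26 and 0.37 ± 0.98, and Cox8c by 0.09 ± 0.50 and 0.36 ± 0.60. All of these were dim.

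Cox7b2, known from testis, had the largest clean air difference, 0.74 ± 0.35, with an adjusted p of 0.180 by limma. With octanoic acid it was 0.67 ± 1.14, and 1 array, GFP+ of pool 3, stood at 8.12 log2 where the other 3 GFP+ arrays were at 6.06, 5.66 and 5.90. Of the pair named for complex I, Ndufa4 differed by -0.08 ± 0.26 and 0.32 ± 0.41, and Ndufa4l2, far under the background, by 0.16 ± 0.20 and 0.37 ± 0.27. Atp5g2 differed by -0.32 ± 0.28 with octanoic acid and Atp5g3 by 0.30 ± 0.09, so that genes of the same c subunit lay on opposite sides of 0.

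Pools differed in how far the whole set was shifted. With clean air, the median difference over the 97 genes was 0.14, 0.09, 0.14 and 0.12 log2 in pools 1 to 4, and that of all genes 0.07, 0.08, 0.09 and 0.10. With octanoic acid, the members' median was 0.12, 0.47, 0.06 and 0.05, and that of all genes 0.06, 0.09, 0.01 and 0.14. Pool 2 of octanoic acid thus stood apart: 87 of 97 genes (89.7%) were above 0 there, against 56.7% of all genes, and 52 to 70 in the other 3 pools of that treatment. Bright genes in general were shifted in that pool, with a median of 0.24 over the 9747 genes above the dim limit and of 0.48 over the 83 members above it. In pool 2 the median was 0.52 for complex I, 0.49 for complex II, 0.52 for complex III, 0.15 for complex IV and 0.48 for complex V. Without it, the members' median with octanoic acid was 0.08 against 0.09 for all genes, 57 were above 0, and 1 was called higher and 0 lower. Of all genes 6.72% were then called higher and 10.5% lower.

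**Figure D3:**
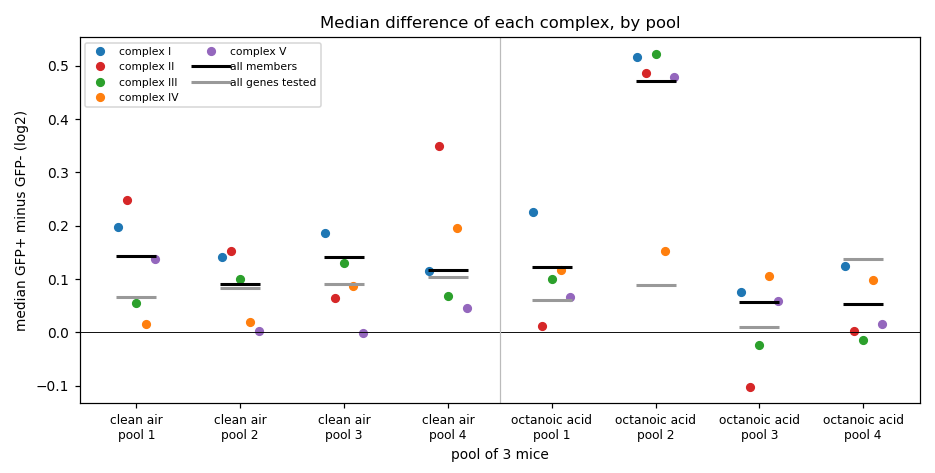
Median difference between GFP+ and GFP- cells (y axis, log2) of each complex (coloured points), of all 97 genes (black bars) and of all genes tested (grey bars), in each pool of 3 mice (x axis). The black bar stands at 0.47 in pool 2 of octanoic acid and between 0.05 and 0.14 in the other 7 pools.

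The odor effect on the difference between GFP+ and GFP- cells was tested directly, 4 pools against 4. By limma, 0 of the 97 genes passed in either direction, as did 0% of all genes; none had an unadjusted p under 0.05, against 871 of all genes, and the smallest adjusted p was 0.940. So the calls with octanoic acid alone do not show a difference from clean air. The median change was 0.03 log2 against -0.03 for all genes, and the range was -0.57 to 0.52. Without pool 2 of octanoic acid the median was -0.06, with 39 of 97 above 0, and without pool 3 it was 0.12, with 67 above 0. The genes with the smallest p were Ndufa11 (-0.46, unadjusted p = 0.0502 by limma), Ndufaf4 (0.44), Ndufa7 (0.46), Ndufb4 (0.44) and Sdhaf1 (-0.45). Ndufaf4, an assembly factor, went from -0.10 ± 0.26 in the clean air pools to 0.34 ± 0.10 in the octanoic acid pools, and Sdhaf1 from 0.33 ± 0.23 to -0.12 ± 0.37. The 95% interval lay within 1 log2 of 0 for 91 of 97 genes, the exceptions being Cox4i2, Cox7b2, Cox8b, Cox8c, Ndufaf6 and Ndufs7. Centred on receptor genes, the median was 0.28 against 0.22 for all genes, and 91 were above 0.

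Octanoic acid was also compared with clean air within each sorted fraction. In GFP+ cells 0 of 97 genes passed, as did 0% of all genes (limma, smallest adjusted p 0.955), and 6 had an unadjusted p under 0.05, against 716 of all genes. The median was -0.08 log2 against -0.01 for all genes, with 30 of 97 above 0, and turned to 0.04 with 64 above 0 when arrays were centred on receptor genes. Without pool 4 of octanoic acid it was 0.00. The smallest p belonged to Ndufb7 (-0.46, unadjusted p = 0.0254 by limma), Uqcr10 (-0.42), Ndufa11 (-0.39), Ndufa6 (-0.38) and Cox4i2 (0.73). The interval lay within 1 log2 of 0 for 93 of 97.

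In GFP- cells 0 of 97 passed, again with 0% of all genes (limma, smallest adjusted p 0.985), and 7 had an unadjusted p under 0.05, against 741 of all genes. The median was -0.10 log2 against 0.03 for all genes, with 26 of 97 above 0, and all 97 intervals lay within 1 log2 of 0. It was -0.23 with 5 above 0 when arrays were centred on receptor genes, and -0.06 with 41 above 0 without pool 2 of octanoic acid. The smallest p belonged to Atp5j2 (-0.46, unadjusted p = 0.0179 by limma), Ndufb4b (-0.52), Ndufb6 (-0.37), Ndufaf5 (-0.46) and Atp5md (-0.41). Ndufb4b and Ndufaf5 are among the genes called between GFP+ and GFP- cells with octanoic acid, and these comparisons share the GFP- arrays with octanoic acid.

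Genes around the chain were taken from lists by function. Their counts stand beside the shares of all genes. With clean air 5.83% of all genes were called higher and 9.58% lower, and with octanoic acid 6.26% and 10.9%. Of 34 measured assembly factors that the symbol rule does not take, 0 were called with clean air (median 0.12 log2) and 4 were higher with octanoic acid (median 0.14). These were Tmem186, for complex I, at 0.99 ± 0.48 log2 with an adjusted p of 0.00374 by limma, Ttc19 (0.63 ± 0.36) and Lyrm7 (0.58 ± 0.38), both for complex III, and Sco1 (0.67 ± 0.41), which delivers copper to complex IV and whose group means all lay under the background. The call of Tmem186 held in 8 of 8 fits that left out 1 pool, and those of Ttc19, Lyrm7 and Sco1 in 6, 6 and 5. Ttc19 lost it without pool 3 or 4 of octanoic acid (adjusted p up to 0.101), Lyrm7 without pool 1 or 4 (up to 0.142) and Sco1 without pool 2, 3 or 4 (up to 0.121). Tmem186 measured 7.61, 7.07, 6.98 and 7.42 in GFP- and 7.91, 8.40, 8.29 and 8.46 in GFP+ arrays with octanoic acid, without overlap, and differed by 0.13 ± 0.30 with clean air.

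Of 76 proteins of the mitochondrial ribosome, which makes the mitochondrially encoded subunits, 2 (2.63%) were higher and 1 (1.32%) lower with clean air. Both shares lay under those of all genes. With octanoic acid 2 were higher. Mrpl41 (0.61 ± 0.14 log2) and Mrpl37 (0.50 ± 0.26) rose and Mrpl33 (-0.47 ± 0.19) fell with clean air, and Mrpl37 (0.48 ± 0.14) and Mrps5 (0.45 ± 0.18) rose with octanoic acid. Each of these calls held in at most 3 of 8 fits that left out 1 pool, with adjusted p up to 0.208 for Mrpl37. Of 15 genes of the citric acid cycle and pyruvate dehydrogenase, Fh1, the fumarase that works just after complex II, rose with clean air (0.59 ± 0.36, lost without pool 1, 2 or 4 of clean air, with adjusted p up to 0.177) and none was called with octanoic acid, where 2 had an unadjusted p under 0.05. Of 26 import genes none was called with clean air, with 0 at an unadjusted p under 0.05, and the dim Timm8a2 rose with octanoic acid (0.72 ± 0.45), a call that held in 3 of 8 such fits.

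Ppargc1a, which encodes the coactivator PGC-1 alpha of mitochondrial biogenesis, was higher in GFP+ cells with either treatment. With clean air it measured 13.69, 13.23, 14.30 and 13.45 log2 in GFP- and 14.73, 14.30, 14.87 and 14.96 in GFP+ arrays. That is 2.07-fold, 1.05 ± 0.38 log2, with an adjusted p of 0.00127 by limma. With octanoic acid it measured 13.99, 13.76, 13.55 and 13.88 in GFP- and 14.95, 14.62, 14.02 and 14.95 in GFP+ arrays, 1.79-fold or 0.84 ± 0.26 log2, with an adjusted p of 0.00549. Every GFP+ array lay above every GFP- array with either treatment, although with clean air the highest GFP- value (pool 3) and the lowest GFP+ value (pool 2) both rounded to 14.30. Both calls held in 8 of 8 fits that left out 1 pool and with each scaling tried. Of the other 10 measured biogenesis regulators, which include Nrf1, Gabpa and Yy1, 0 were called with clean air and 1, Tfam, the packaging factor of mitochondrial DNA, rose with octanoic acid (0.61 ± 0.52, a call that held in 1 of 8 such fits).

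Ckb, the brain creatine kinase, which carries the energy of ATP from mitochondria to where it is used, rose with clean air by 0.88 ± 0.24 log2 (adjusted p 0.00293 by limma) and with octanoic acid by 0.56 ± 0.32 (adjusted p 0.0378). The first call held in 8 of 8 fits that left out 1 pool and the second in 3, with adjusted p up to 0.126. It was the 1 gene called among 10 of its list, which holds cytochrome c and the carriers of adenine nucleotides and phosphate, in either comparison.

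Of 16 glycolysis genes 0 were called higher, and 3 (18.8%) were lower with clean air and 4 (25%) with octanoic acid, where 9.58% and 10.9% of all genes were lower. The clean air median of these 16 was 0.14 log2 (10 above 0), and that with octanoic acid -0.04 (7 above 0). Ldha, the lactate dehydrogenase subunit known for making lactate, measured 10.82, 11.65, 11.26 and 12.00 log2 in GFP- and 8.54, 8.01, 8.26 and 8.47 in GFP+ arrays with clean air. It was 8.66-fold lower, with an adjusted p of 5.2e-06 by limma, and 10.1-fold lower with octanoic acid. Slc2a3, a glucose transporter that leukocytes also use, fell by at least 7.33-fold in the clean air pools and at least 13.8-fold in the octanoic acid pools, and lay under the background in all 8 GFP+ arrays. Aldoc was lower with either treatment (-0.79 ± 0.37 and -0.57 ± 0.15) and Pgk1 with octanoic acid (-1.07 ± 0.73). Leaving out 1 pool kept the calls of Ldha and Slc2a3 in 8 of 8 fits with either treatment, those of Aldoc in 8 and 2, and that of Pgk1 in 6, lost without pool 3 or 4 of octanoic acid. Ldhb, the partner subunit of Ldha, was 1.02-fold lower with clean air and 1.07-fold lower with octanoic acid, and was not called. The leukocyte markers given above fell in the same GFP+ arrays, and their part in the falls of Ldha and Slc2a3 was not tested.

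**Figure D4:**
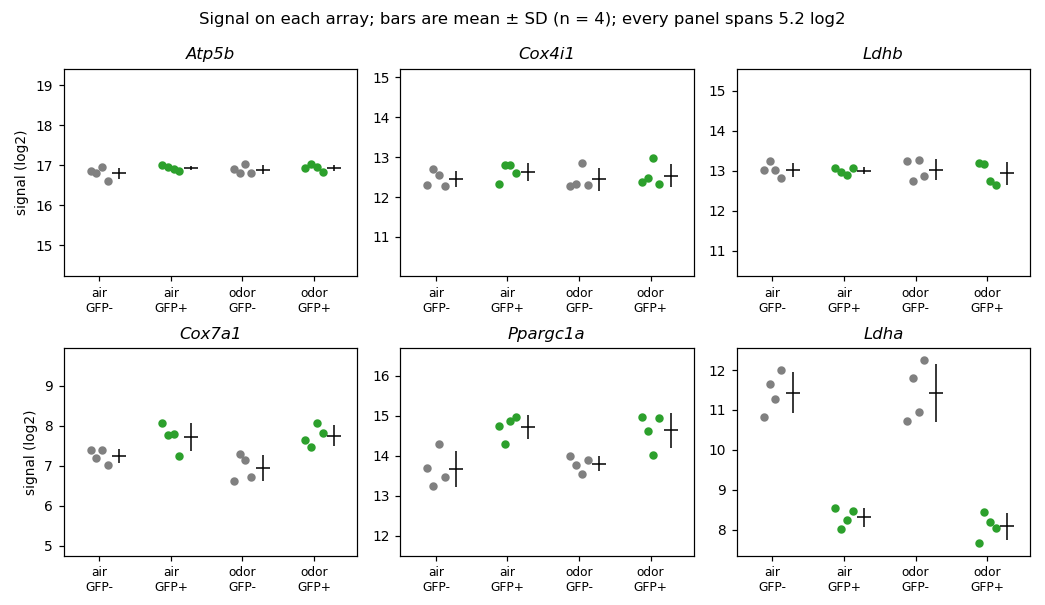
Signal on each array (y axis, log2, every panel spanning the same range) of Atp5b, Cox4i1, Ldhb, Cox7a1, Ppargc1a and Ldha in the 4 groups (x axis); points are arrays, grey for GFP- and green for GFP+, and bars are mean ± SD (n = 4). Atp5b, Cox4i1 and Ldhb stand at like levels in the 4 groups, Ppargc1a stands about 1 log2 higher in GFP+ cells and Ldha about 3 log2 lower.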

How the data were processed

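Clariom S arrays were made from biotin-labelled RNA, 50 to 100 ng per sample, of the 16 sorted samples. The deposited table gives a log2 signal for each probe set on each array, for which the authors used Affymetrix Expression Console per the submitters' processing notes. The software version, how probes were summarised and how background was handled are not given in the sources used here. That the scale is log2 was judged from the range of the values, 2.13 to 19.5. Of 28846 probe sets 6640 are controls and 19572 carry 1 gene symbol. The brightest was kept where a gene had several, which left out 67, and 2634 without a name were not used. Precision is limited by the number of pools, 4 per treatment.

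Two-sided tests were made in limma 3.58.1 (R 4.3.3; lmFit, then eBayes) on the GFP+ signal minus the GFP- signal (log2) of each of 8 pools. The mean of each treatment was set against 0 and the treatments against each other, and octanoic acid was compared with clean air in GFP+ and in GFP- arrays, 4 against 4. Benjamini-Hochberg adjustment covered all 19505 genes, and an adjusted p under 0.05 is a call. The within-pool difference was used because both sorted samples of 1 number and treatment come from the same mice. Folds were taken from group means of the deposited values. Where the dimmer group lay at the background arrays under it were set to it, which makes the fold a lower bound.

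Octanoic acid and clean air pools also share numbers. Deviations of same-numbered pools correlated at 0.179, 0.110, 0.237 and 0.100 (differences), 0.371, 0.100, 0.219 and 0.138 (GFP+ arrays) and 0.408, 0.100, -0.0986 and 0.153 (GFP- arrays). All values passed 0.1, the limit for taking the numbers as a pairing, for the differences and the GFP+ arrays, the lowest of them narrowly. For the GFP- arrays the value of -0.0986 did not. A block on the number changed no call among the members in these comparisons. The alternatives tried were centring on array medians or on olfactory receptor genes, quantile normalization, a filter on dim genes, the mean of a gene's probe sets, a robust fit with a trend, unpaired fits, a block on the pool number, leaving out each pool, and leaving out pool 3 of octanoic acid with pool 4 of clean air, each of which holds an array that stood apart. The models were also run on simulated data with independent noise and no shift between pools or arrays, which cannot speak to the effect of scaling. Promoter windows came from RefSeq.

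Genes and lists were chosen with earlier results of these data known. Named are all dim members, all calls of at most 4 per complex, direction and list, the isoform sets, and the 5 smallest p where nothing passed. Other members were named for their role after their values were seen.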

Additional observations from a re-analysis of the deposited data

Results flagged for a closer look

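In 60 groups of 4 pools, 1 pool's gap to the others was tested against Dixon's limit, which chance passes in about 1 in 20 groups, and 3 passed. That is about as many as chance would give at this rate. All 3 were pool 2 of octanoic acid, and they are not separate findings, since complex V and Ndufa7 are part of the 97 genes. Its median difference between GFP+ and GFP- cells over the 97 respiratory chain genes was 0.47 log2, and 0.05 to 0.12 in the other 3 pools of that treatment. Over the genes of complex V, the ATP synthase, it was 0.48 log2, and 0.02 to 0.07 in the others. For Ndufa7, a dim accessory subunit of complex I, the difference was 0.94 log2 in that pool, and 0.34 to 0.42 in the others.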

How the results depend on the processing

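The count of members called higher with clean air, 0, became 34 with arrays centred on their medians, 6 with quantile normalization and 1 with dim genes left out, and was 0 to 2 with 1 pool left out. Of all tested genes 31.2% were called higher with median centring, 9.3% with quantile normalization and 11.3% with dim genes left out. With octanoic acid the count of 6 became 56 with median centring, 19 with quantile normalization, 1 with receptor centring, 3 without pool 3 of octanoic acid and pool 4 of clean air, and 2 in unpaired fits, and was 1 to 4 with 1 pool left out. The shares of all genes called higher were 39.9% with median centring, 13.3% with quantile normalization and 3.53% with receptor centring. Without those pools the share was 4.21%, and in unpaired fits 5%. The count of 1 lower became 0 with median centring or receptor centring, and was 0 to 1 with 1 pool left out. With dim genes left out Cox6b2 was not among the genes tested, so that fit cannot show whether its call held. All 6 rises were also called with median centring and with quantile normalization. Median centring moved the median of all genes from 0.11 to 0.38 log2 with clean air and from 0.11 to 0.42 with octanoic acid, and receptor centring moved them to -0.06 and 0.19. With the replicate block on the pool number, 0 members were called in each of the 3 comparisons of octanoic acid with clean air, with smallest adjusted p over all genes of 0.781, 0.826 and 0.915. No difference of a named gene that was called changed sign under the alternatives run. The negative controls' 95th percentile was 10.4 log2, so signals under it may be background.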
